A study of Xenopus laevis with 15 samples.

Results

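Transcripts of 4 genes that act between transcription and the export of mRNA from the nucleus, hnrnpab, alyref, srsf6 and prpf19, were followed in whole Xenopus laevis embryos exposed to the compound NRX204647. They are the 4 gene models among 45099 in the deposited table that carry these symbols, with 1 gene model for each symbol. They were selected on their FPKM levels in all 3 groups, which were known from earlier results of these data, so their own differences are described without p-values. The groups were embryos in 0.1% ethanol as vehicle, embryos in 10 nM NRX204647 and embryos in 1 µM NRX204647, with 5 libraries each. The labels call 10 nM selective for retinoic acid receptor (RAR) gamma, and state that 1 µM also activates RAR alpha and beta. Exposure of dishes of 25 embryos began at stage 6 and ended at stage 18, when each dish was divided into 5 aliquots of 5 embryos, each giving 1 library. No further dishes per group are described, so treatment and dish cannot be told apart, and the spread between libraries is that between aliquots.

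A pre-mRNA is bound by heterogeneous nuclear ribonucleoproteins (hnRNPs) while it is being transcribed, and SR proteins, named for their serine and arginine repeats, bind its exons and guide the spliceosome to nearby splice sites. The Prp19 complex joins the spliceosome and holds it in its active form. The spliced mRNA is then marked for export, for which the adaptor ALYREF, part of the TREX complex, passes it to the export receptor of the nuclear pore. Retinoic acid receptors are transcription factors that are switched by ligand, and in frog embryos they pattern the hindbrain and the body axis. The table holds 1 level per gene model, so splice site use and export themselves were not measured.

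Levels are FPKM, fragment numbers scaled by gene model length and by the mapped fragments of the library, which allows genes to be compared per length. The low FPKM values rise in steps, and each library's relative depth was recovered from the ratios of these steps between libraries. It was from 0.312 to 0.833 of the deepest library with vehicle, from 0.259 to 0.646 at 10 nM and from 0.535 to 1 at 1 µM. The most abundant gene model, Xelaev18000045m.g, which has no gene name in the table, held 23.6% to 45.5% of the summed FPKM in vehicle libraries, 17.6% to 32.9% at 10 nM and 14.5% to 26.2% at 1 µM. Vehicle replicate 3 had the largest share of the 15 libraries, at 45.5%. Of 23 marker genes looked for, 4 carried a symbol in the table, and their mean levels were not alike in the 3 groups. The neural plate gene sox2 averaged 3.30 FPKM with vehicle, 0.927 at 10 nM and 1.66 at 1 µM. These sox2 levels rest on few recovered reads, 10 to 31 per library, 0 to 12 and 8 to 20 in the same order. The neural crest gene sox9 averaged 2.70, 2.09 and 5.86 FPKM, also in that order. The muscle gene chrnd averaged 7.81, 6.87 and 3.30 FPKM, and the epidermal gene grhl3 averaged 18.9, 23.7 and 15.1 FPKM. The part of these marker differences in the results for the 4 genes was not tested. In whole embryos, fewer cells of a type and less RNA per cell cannot be told apart.

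Transcripts of hnrnpab and alyref were higher at both doses than with vehicle, srsf6 was lower at both doses, and prpf19 was the flattest of the 4. Over the 15 libraries, the highest level was 3.65 times the lowest for hnrnpab, 3.58 times for alyref, 2.43 times for srsf6 and 1.52 times for prpf19. The level of hnrnpab averaged 213 FPKM over the 15 libraries, rank 49 among the 13192 gene models whose mean reached 1 FPKM. The mean levels of alyref, srsf6 and prpf19 were 26.2, 13.6 and 8.49 FPKM, at ranks 701, 1424 and 2347. All 4 passed that minimum, which defines the gene models tested here.

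**Figure D1:**
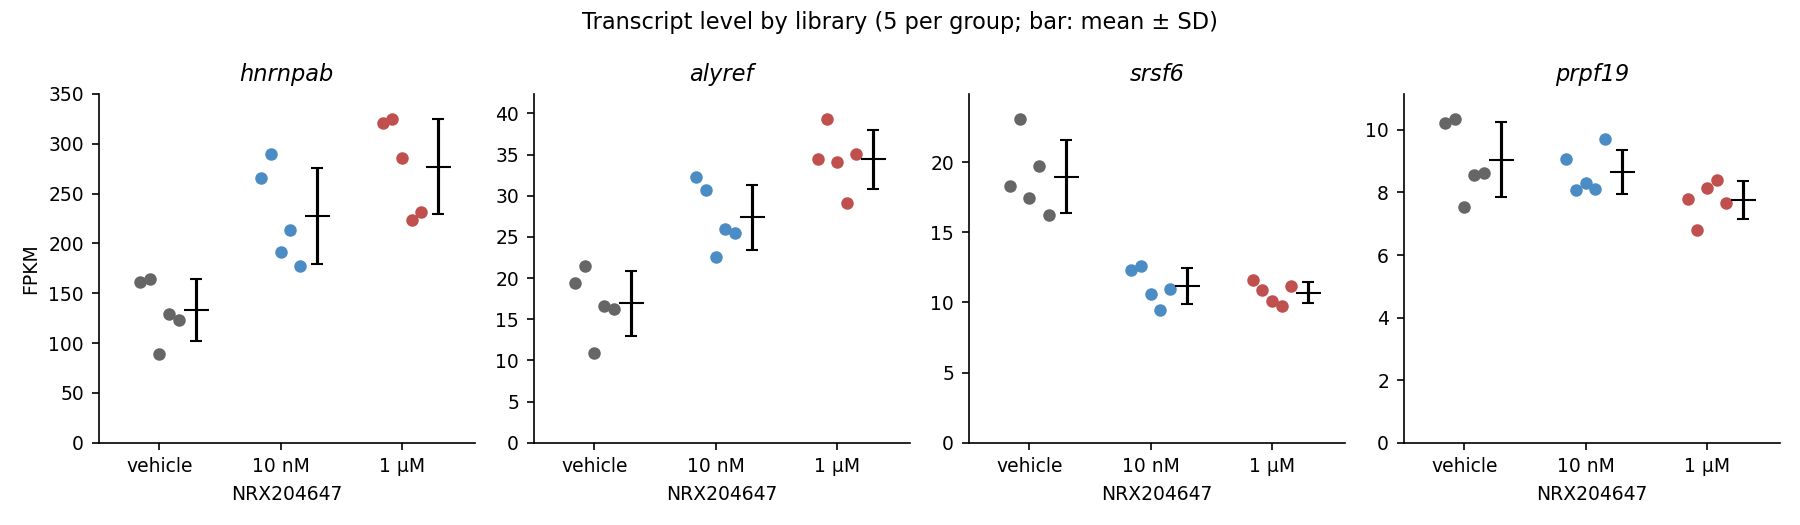
FPKM of hnrnpab, alyref, srsf6 and prpf19 in each library (points, in replicate order) by NRX204647 group, with the mean ± SD of 5 libraries beside the points. The points of hnrnpab and alyref at either dose lie above every vehicle point, those of srsf6 lie below every vehicle point, and those of prpf19 overlap.

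The gene hnrnpab encodes an RNA-binding protein of the hnRNP A/B type, with a pair of RNA recognition motifs. In the vehicle libraries it stood at 161, 164, 89.0, 129 and 123 FPKM in replicate order. At 10 nM it stood at 266, 289, 191, 213 and 178 FPKM, and at 1 µM at 320, 324, 285, 223 and 232 FPKM. Each of the 10 libraries from treated embryos was above each vehicle library, and vehicle replicate 3 was the lowest of all. The means were 133 ± 31.0 FPKM with vehicle, 227 ± 48.2 at 10 nM and 277 ± 47.8 at 1 µM (SD, n = 5 each). The 10 nM mean was 1.71 times that of vehicle and the 1 µM mean was 2.08 times that of vehicle. The doses overlapped: 2 of the 5 libraries at 1 µM exceeded the highest at 10 nM, and the means differed by a factor of 1.22, which is about the size of the SD of either group. Its values could not be resolved into whole reads, and the reason was not tested.

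The gene alyref encodes the export adaptor that links spliced mRNA to the nuclear export receptor. Its vehicle libraries held 19.4, 21.4, 11.0, 16.6 and 16.3 FPKM. The 10 nM libraries held 32.2, 30.7, 22.6, 26.0 and 25.5 FPKM, and the 1 µM libraries 34.5, 39.3, 34.1, 29.1 and 35.1 FPKM. The vehicle group did not overlap either dose, and its lowest library was again replicate 3. Means were 16.9 ± 3.95 FPKM with vehicle, 27.4 ± 3.97 at 10 nM and 34.4 ± 3.62 at 1 µM (SD, n = 5 each), or 1.62 and 2.03 times vehicle. Between the doses the separation was nearly complete, with 4 of the 5 libraries at 1 µM above the highest at 10 nM and 1 µM replicate 4 among the 10 nM values. Recovered reads ran from 143 to 475 per library with vehicle, 278 to 576 at 10 nM and 545 to 1375 at 1 µM. If each of these is a whole read, counting error was small beside the spread between libraries.

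The gene srsf6 encodes an SR protein that binds exonic enhancer sequences and influences the choice of alternative exons. Vehicle libraries held 18.3, 23.0, 17.4, 19.7 and 16.3 FPKM. At 10 nM the libraries held 12.3, 12.6, 10.6, 9.47 and 11.0 FPKM, and at 1 µM 11.6, 10.9, 10.1, 9.75 and 11.2 FPKM. Every vehicle library was above every library from treated embryos, and the libraries at 1 µM lay within the range of those at 10 nM. Mean levels were 19.0 ± 2.61 FPKM with vehicle, 11.2 ± 1.28 at 10 nM and 10.7 ± 0.772 at 1 µM (SD, n = 5 each). The mean was 0.591 times that of vehicle at 10 nM and 0.565 times at 1 µM. As deposited, the mean at 1 µM was 0.956 times the mean at 10 nM, a difference smaller than the SD of either group. Recovered reads ran from 314 to 1520 per library, but 12 of the 15 values are even, so the step found may be less than 1 read and the true support lower.

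The gene prpf19 encodes the ubiquitin ligase at the core of the Prp19 complex. Its levels were 10.2, 10.3, 7.53, 8.57 and 8.61 FPKM with vehicle. They were 9.05, 8.08, 8.29, 8.10 and 9.71 FPKM at 10 nM, and 7.79, 6.81, 8.14, 8.40 and 7.66 FPKM at 1 µM. All 3 groups overlapped in the values as deposited. The means were 9.05 ± 1.20 FPKM with vehicle, 8.65 ± 0.713 at 10 nM and 7.76 ± 0.603 at 1 µM (SD, n = 5 each). The 10 nM mean was 0.955 times and the 1 µM mean 0.857 times that of vehicle. Of the 25 pairs of a 1 µM library with a vehicle library, the 1 µM library was higher in 4, and of the 25 pairs of a 10 nM with a vehicle library the 10 nM library was higher in 9. Between the doses, 3 of the 5 libraries at 1 µM were below the lowest at 10 nM. Recovered reads ran from 211 to 777 per library.

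On the log2(FPKM + 1) scale, which understates differences of low genes, the fit of all tested gene models gave hnrnpab a log2 fold change of 0.77 ± 0.18 at 10 nM against vehicle and 1.07 ± 0.18 at 1 µM against vehicle (SE). For alyref the values were 0.68 ± 0.15 and 1.01 ± 0.15, for srsf6 -0.71 ± 0.10 and -0.76 ± 0.10, and for prpf19 -0.05 ± 0.09 and -0.19 ± 0.09 in the same order. The 2 comparisons share their 5 vehicle libraries. Between 1 µM and 10 nM, the log2 fold changes were 0.29 ± 0.18 for hnrnpab, 0.32 ± 0.15 for alyref, -0.06 ± 0.10 for srsf6 and -0.14 ± 0.09 for prpf19. At 10 nM, 566 of the 13192 tested gene models had a log2 fold change at least as high as that of hnrnpab, and 279 had one at least as low as that of srsf6. At 1 µM these numbers were 861 and 562. Between 1 µM and 10 nM, 3212 tested gene models had a log2 fold change at least as high as that of hnrnpab. For alyref that number was 2823.

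Whether the groups overlapped can be set beside all tested gene models. At 10 nM, 2 of the 4 genes (hnrnpab, alyref) had every library above every vehicle library, as did 8.12% of the tested gene models, and 1 (srsf6) had every library below, as did 5.92%. At 1 µM the same genes separated in the same way, beside 20.7% of the tested gene models above and 11.4% below. Between the doses none of the 4 separated. There 12.5% of the tested gene models lay wholly higher at 1 µM and 6.06% wholly lower. The 4 genes were picked with these comparisons in view, so nothing is read from their share.

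Ratios of these genes within a library are not altered when a library is multiplied by a scaling factor, as in median-of-ratios scaling or the common total. Quantile normalization can alter them. The ratio of alyref to hnrnpab was 0.127 ± 0.00514 with vehicle, 0.122 ± 0.0135 at 10 nM and 0.126 ± 0.0163 at 1 µM (SD, n = 5 each). Over the 15 libraries it stayed between 0.106 and 0.151, a spread of 9.48% of its mean, while hnrnpab and alyref themselves varied by 34.6% and 31.4% of their means. In vehicle replicate 3, where both genes were lowest, the ratio was 0.123. Within the groups, the ratio varied by 4.05% of its mean with vehicle and by 11.1% at 10 nM, less than either gene there (23.3% for each with vehicle, 21.2% for hnrnpab and 14.5% for alyref at 10 nM). At 1 µM it varied by 13.0%, beside 17.2% for hnrnpab and 10.5% for alyref.

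The ratios of alyref and hnrnpab to srsf6 were higher at both doses than with vehicle. The ratio of alyref to srsf6 was 0.893 ± 0.169 with vehicle, 2.45 ± 0.244 at 10 nM and 3.22 ± 0.271 at 1 µM (SD, n = 5 each). The groups did not overlap at any step: vehicle libraries reached 1.06, 10 nM libraries ran from 2.12 to 2.74, and 1 µM libraries began at 2.97. The ratio of hnrnpab to srsf6 was 7.03 ± 1.37 with vehicle, 20.3 ± 2.99 at 10 nM and 25.9 ± 3.85 at 1 µM. Its 10 nM mean was 2.88 times and its 1 µM mean 3.68 times that of vehicle, and the doses overlapped. The ratio of srsf6 to prpf19 was 2.11 ± 0.247 with vehicle, 1.30 ± 0.172 at 10 nM and 1.39 ± 0.184 at 1 µM, with the vehicle libraries above all others. These ratios were formed after the levels had been seen and are a description. With every treated library above vehicle in alyref and hnrnpab and below it in srsf6, the ratios of those genes to srsf6 were bound to separate from vehicle. Every other ratio formed between the 4 genes overlapped between 10 nM and 1 µM. That of alyref to prpf19 reached 3.79 at 10 nM and began at 3.46 at 1 µM. Ratios between other gene models were not formed, so no share stands beside the separation of any ratio. The genes were picked on their levels in all 3 groups, so nothing is read from the gap between the doses in alyref to srsf6.

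**Figure D2:**
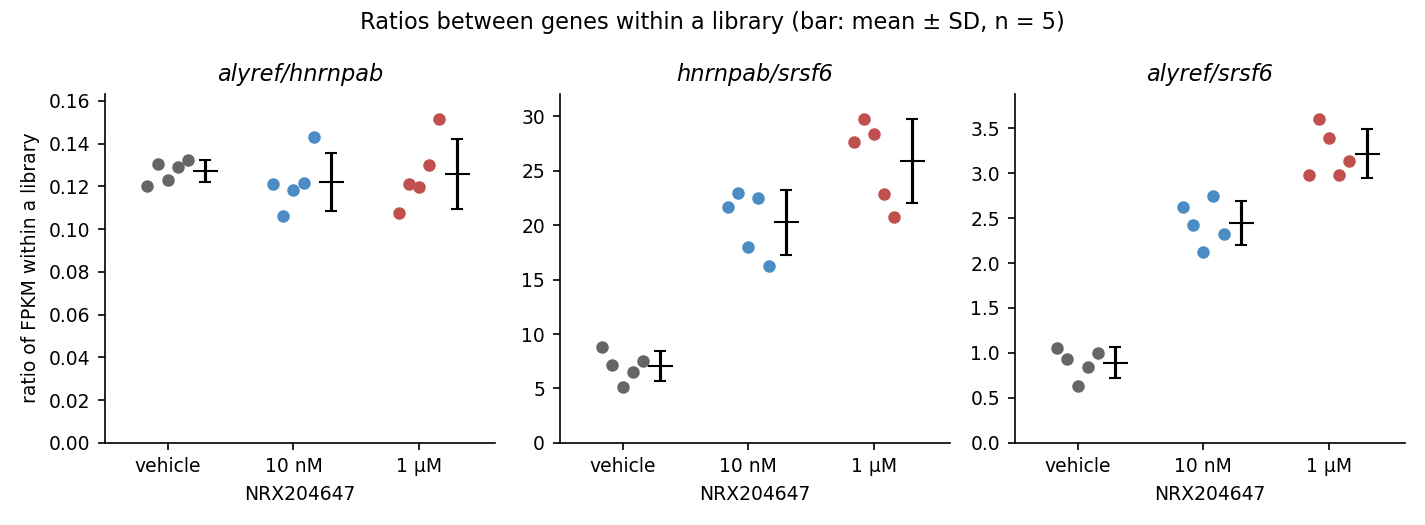
Ratio of FPKM between pairs of genes within each library (points) by NRX204647 group, with the mean ± SD of 5 libraries. The alyref to hnrnpab ratio stays between 0.106 and 0.151 in all 15 libraries. The alyref to srsf6 ratio does not overlap between the 3 groups. For vehicle against either dose, the choice of these genes fixed this in advance. They were picked on their levels in all 3 groups, so nothing is read from the gap between the doses either.

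The level of hnrnpab also moved with the share of summed FPKM held by the most abundant gene model. In each group the library with the largest share had the lowest hnrnpab level: 89.0 FPKM at a share of 45.5% with vehicle, 178 FPKM at 32.9% at 10 nM and 223 FPKM at 26.2% at 1 µM. The shares differed between the groups as well, with a mean of 32.3% ± 8.07 with vehicle, 24.5% ± 6.00 at 10 nM and 20.5% ± 5.06 at 1 µM (SD, n = 5 each). When the libraries were scaled to a common total without that gene model, hnrnpab ran from 111 to 170 with vehicle, from 179 to 266 at 10 nM and from 221 to 297 at 1 µM, in FPKM rescaled in this way. For alyref the rescaled ranges were 13.7 to 22.2 with vehicle, 23.0 to 30.0 at 10 nM and 29.3 to 36.0 at 1 µM. Vehicle overlapped neither dose for either gene. The share of all tested gene models wholly higher under this scaling was not counted, so nothing is read from that.

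**Figure D3:**
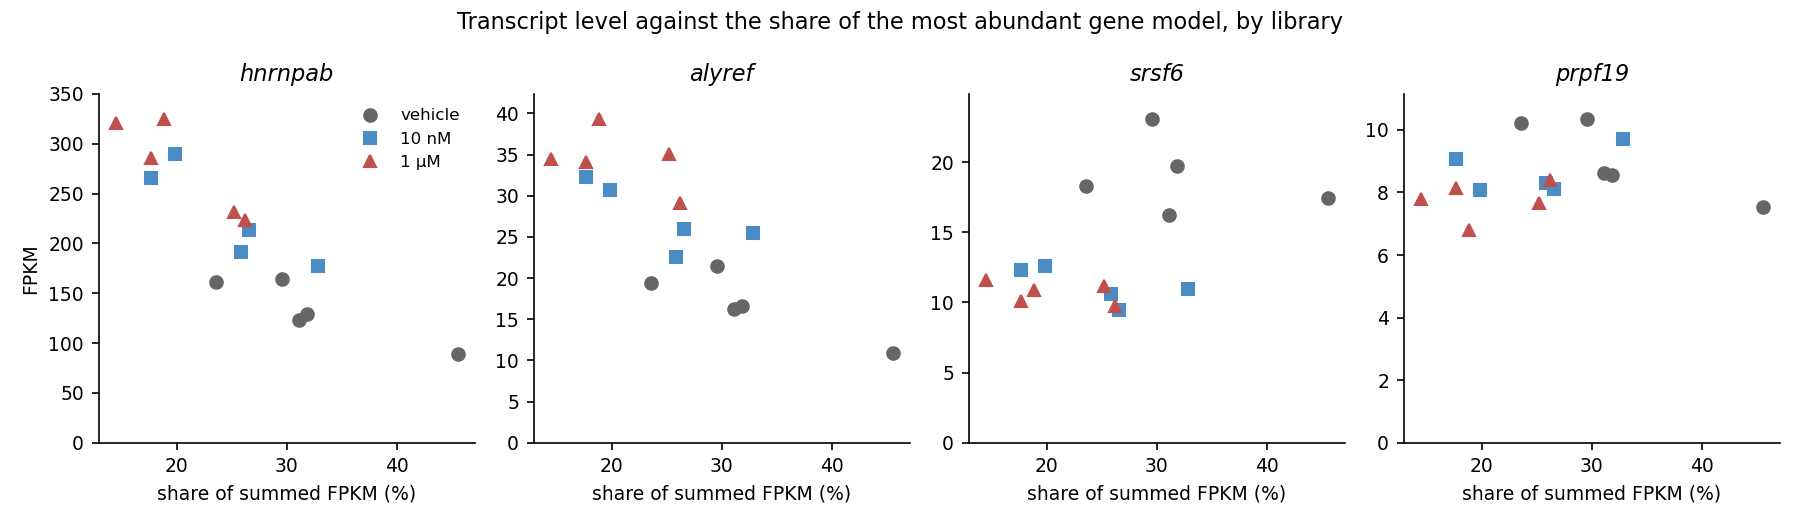
FPKM of each of the 4 genes (vertical axes) against the share of summed FPKM held by the most abundant gene model (horizontal axes, percent) in 15 libraries, with symbols for the NRX204647 groups. In each group the library with the largest share is the lowest in hnrnpab, and vehicle replicate 3 lies far to the right at 45.5%.

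Other scalings changed the sizes but not the direction for hnrnpab, alyref and srsf6. Over median-of-ratios scaling, quantile normalization and the common total, the log2 fold change at 10 nM against vehicle ran from 0.49 to 0.78 for hnrnpab, from 0.52 to 0.69 for alyref and from -0.87 to -0.71 for srsf6. At 1 µM against vehicle it ran from 0.76 to 0.95, from 0.77 to 0.90 and from -0.998 to -0.87 in the same order. Between the doses it ran from 0.18 to 0.28, from 0.21 to 0.25 and from -0.16 to -0.13, against 0.29, 0.32 and -0.06 as deposited. Under each of these scalings the srsf6 means at the 2 doses differed by more than the SD of either group. After median-of-ratios scaling they were 11.5 ± 0.814 at 10 nM and 10.2 ± 0.724 at 1 µM (SD, n = 5 each), in rescaled FPKM. The common total moved the median log2 fold change of all tested gene models to -0.11 at 10 nM and -0.09 at 1 µM, against 0.01 and 0.09 as deposited.

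Whether the groups overlapped in prpf19 depended on the scaling. As deposited, its 1 µM and vehicle libraries overlapped. They did not under any of the 3 other scalings: 6.68 to 8.07 at 1 µM against 8.69 to 9.97 with vehicle after median-of-ratios scaling, 6.37 to 8.23 against 8.92 to 10.2 after quantile normalization, and 6.24 to 8.46 against 9.36 to 10.7 with the common total, in rescaled FPKM. Of the tested gene models, 16.3%, 19.2% and 21.6% were wholly lower at 1 µM under these scalings, in the same order, and 11.4% as deposited. The log2 fold change of prpf19 at 1 µM against vehicle was -0.29, -0.36 and -0.42 under these scalings, and -0.19 as deposited. The median over all tested gene models was 0.01, -0.04 and -0.09 under these scalings, and 0.09 as deposited. Relative to that median, prpf19 stood at -0.30, -0.32 and -0.33, and at -0.28 as deposited. At 10 nM against vehicle the log2 fold change of prpf19 was -0.05, -0.12 and -0.21, and -0.05 as deposited.

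**Figure D4:**
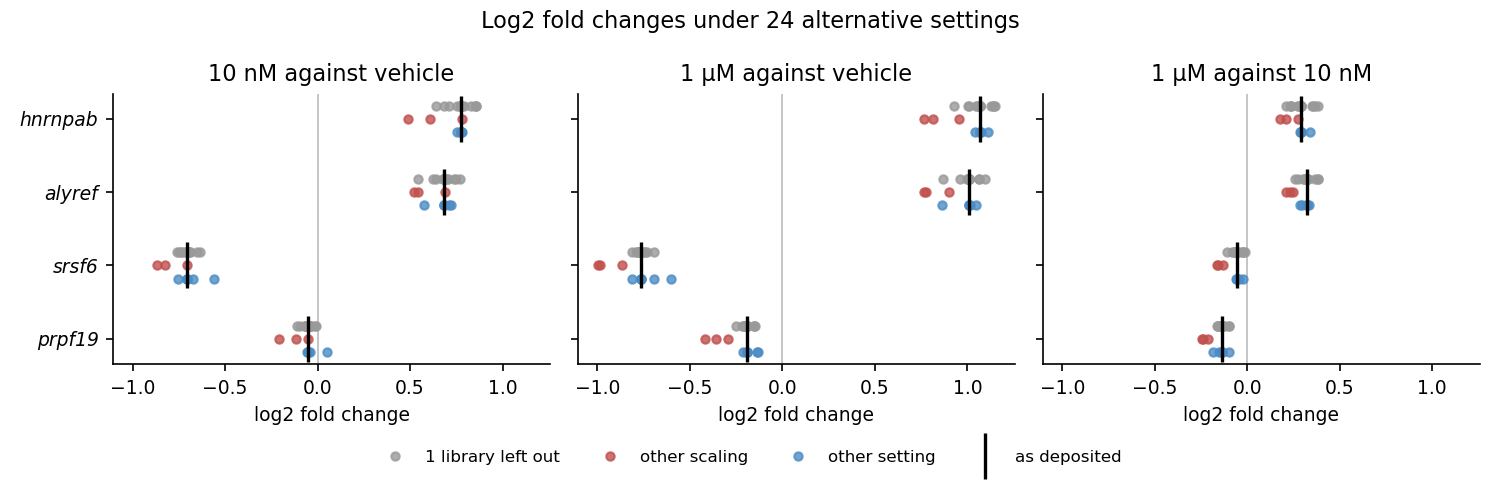
Log2 fold change (horizontal axes) of the 4 genes in each comparison, as deposited (black bars) and under 24 alternative settings, of which 15 leave out 1 library (grey), 3 rescale the libraries (red) and the others change the pseudocount, the filter, the covariates or the depth minimum (blue). At either dose against vehicle, every point lies to the right of 0 for hnrnpab and alyref and to the left for srsf6, while prpf19 at 10 nM has a point on each side.

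The other genes of splicing and mRNA export were drawn from lists of 6 functional groups with 348 further genes, of which the table names 11. The lists were chosen with earlier results of these data known, so nothing is read from how many of their genes were called. Of these, 10 reached the minimum of 1 FPKM. The exception, nup188, a nuclear pore scaffold gene, averaged 0.413 FPKM with vehicle, 0.275 at 10 nM and 0.335 at 1 µM. By limma with Benjamini-Hochberg adjustment over all tested gene models, 1 of the 10 passed at 10 nM against vehicle (0 higher, 1 lower, 9 not past the threshold), where 23.3% of tested gene models passed, 13.0% higher and 10.3% lower. At 1 µM against vehicle 3 passed (3 higher, 0 lower, 7 not), where 45.6% did, 28.9% higher and 16.6% lower, and between the doses 1 passed (higher at 1 µM), where 23.8% did, 16.1% higher and 7.72% lower. The median log2 fold change of the 10 genes was -0.10 at 10 nM and -0.02 at 1 µM against vehicle, and 0.12 between the doses. Over all tested gene models the medians were 0.01, 0.09 and 0.08. The p-values here and below rest on the spread between aliquots, so they do not tell treatment from dish.

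Among genes of the hnRNP type, ptbp3, a polypyrimidine tract-binding repressor of exons, rose at 1 µM. Its level was 2.40 ± 0.236 FPKM with vehicle, 2.55 ± 0.223 at 10 nM and 3.54 ± 0.385 at 1 µM (SD, n = 5 each), on 88 to 541 recovered reads per library. All 5 libraries at 1 µM lay above all 10 others. Of the tested gene models, 20.7% lay wholly higher at 1 µM than with vehicle and 12.5% wholly higher than at 10 nM. The log2 fold change was 0.42 ± 0.08 at 1 µM against vehicle (SE, limma adjusted p = 0.000556) and 0.35 ± 0.08 at 1 µM against 10 nM (limma adjusted p = 0.00431, and 0.0523 with quantile normalization). At 10 nM against vehicle it was 0.07 ± 0.08 (limma adjusted p = 0.578). The second gene of the type, hnrnpa0, stood at 11.1 ± 1.67 FPKM with vehicle, 9.85 ± 2.55 at 10 nM and 9.84 ± 1.80 at 1 µM, and passed in no comparison (limma adjusted p from 0.408 to 0.968). No listed SR protein or SR protein kinase other than srsf6 has a symbol in the table.

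Of the 3 listed Prp19 complex or Prp19-related genes, isy1 and ctnnbl1 were called higher at 1 µM than with vehicle as deposited. The spliceosome component gene isy1 averaged 2.18 ± 1.04 FPKM with vehicle, 3.63 ± 1.58 at 10 nM and 3.89 ± 0.461 at 1 µM (SD, n = 5 each), on 4 to 40 recovered reads per library. Its log2 fold change at 1 µM against vehicle was 0.68 ± 0.22 (SE, limma adjusted p = 0.0216), lost without vehicle replicate 1 or vehicle replicate 3, under quantile normalization or the common total, and without the libraries under 0.4 of the deepest (adjusted p up to 0.136). The gene ctnnbl1, whose protein binds the complex, averaged 4.30 ± 1.09 FPKM with vehicle, 5.07 ± 0.651 at 10 nM and 5.65 ± 0.442 at 1 µM. At 1 µM against vehicle its log2 fold change was 0.35 ± 0.12 (limma adjusted p = 0.0310), and 9 of 24 alternatives lost the call (adjusted p up to 0.247). These included no filter, quantile normalization and the common total. The others left out vehicle replicate 3, 4 or 5 or 1 µM replicate 1, 2 or 3. The peptidyl-prolyl isomerase gene cwc27-like stood at 3.83 ± 0.804 FPKM with vehicle, 3.92 ± 0.895 at 10 nM and 4.05 ± 1.02 at 1 µM, and passed in no comparison.

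The gene srrt, for the ARS2 protein that couples the cap-binding complex to RNA processing, was the 1 listed gene called lower at 10 nM. Its level was 7.15 ± 0.245 FPKM with vehicle, 5.31 ± 1.07 at 10 nM and 5.83 ± 0.643 at 1 µM (SD, n = 5 each). All libraries at either dose were below all vehicle libraries, as in 5.92% of tested gene models at 10 nM and 11.4% at 1 µM. At 10 nM the gap was narrow, with a highest library of 6.79 FPKM against a lowest vehicle library of 6.81 FPKM. The log2 fold change was -0.39 ± 0.11 at 10 nM against vehicle (SE, limma adjusted p = 0.0181), lost without the libraries under 0.4 of the deepest (adjusted p = 0.110). At 1 µM against vehicle it was -0.26 ± 0.11 (limma adjusted p = 0.0591), and 7 of 24 alternatives brought it past the threshold. These were the 3 other scalings, pseudocount 5, and leaving out 10 nM replicate 1 or 3 or 1 µM replicate 4. The U2 snRNP-associated gene cherp stood at 6.16 ± 0.602 FPKM with vehicle, 4.81 ± 1.05 at 10 nM and 5.81 ± 0.453 at 1 µM. It missed the threshold at 10 nM (limma adjusted p = 0.0567) and passed it in 4 of 24 alternatives. These were a minimum mean of 5 FPKM, the common total, and leaving out vehicle replicate 2 or 10 nM replicate 5.

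None of the 3 other splicing regulators passed by limma in any comparison. The nuclear matrix RNA-binding gene matr3, the most abundant of them, stood at 9.11 ± 1.24 FPKM with vehicle, 8.39 ± 0.439 at 10 nM and 9.21 ± 0.363 at 1 µM (SD, n = 5 each). With the common total, matr3 and rbm15 passed as lower at both doses against vehicle. The level of rbm15, which also serves RNA methylation, was 3.70 ± 0.473 FPKM with vehicle, 3.36 ± 0.223 at 10 nM and 3.49 ± 0.332 at 1 µM. The KH-domain gene fubp3 stood at 4.64 ± 2.04 FPKM with vehicle, 3.44 ± 0.536 at 10 nM and 3.64 ± 1.31 at 1 µM.

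**Figure D5:**
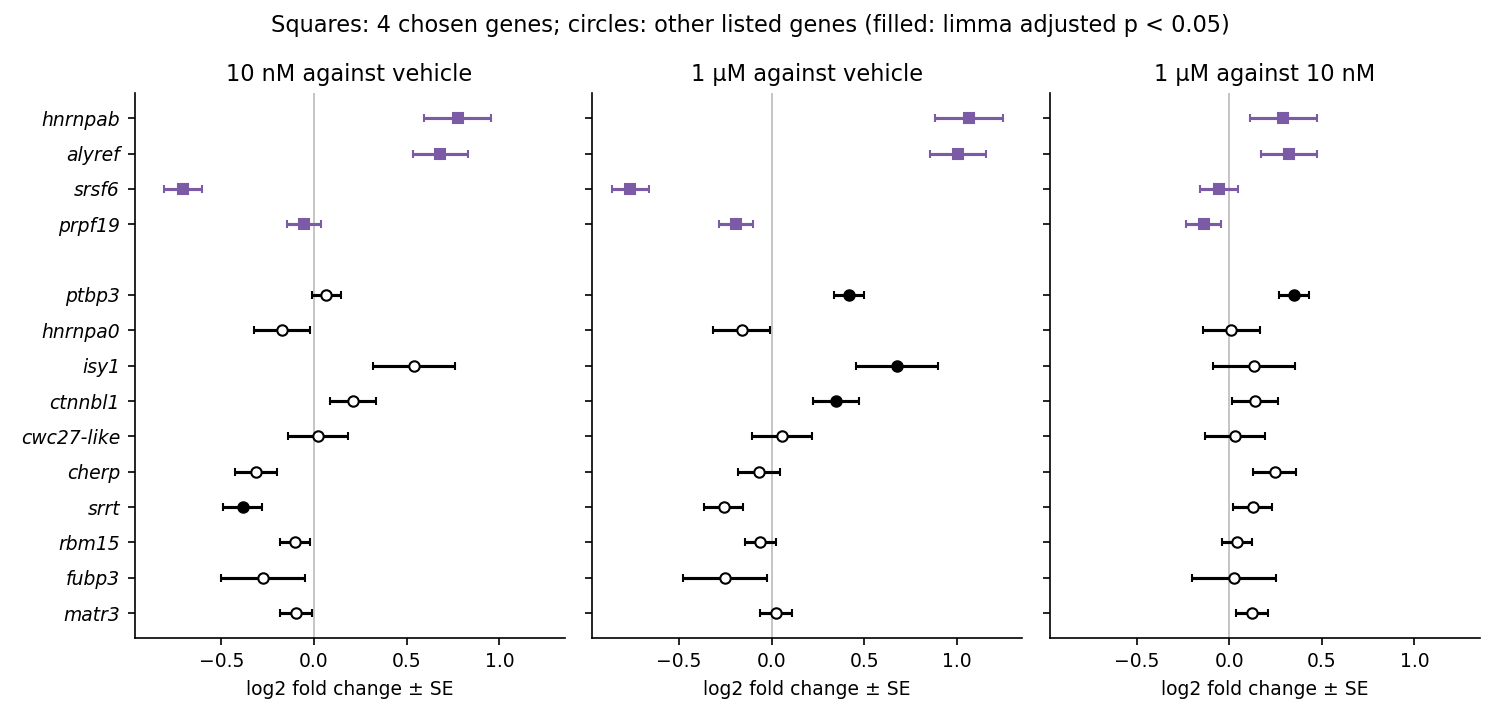
Log2 fold change ± SE (horizontal axes) from the fit of all tested gene models, for the 4 chosen genes (squares, no test) and the 10 other listed genes of splicing and export (circles, filled where the limma adjusted p was under 0.05). At 1 µM against vehicle, hnrnpab and alyref are near 1, srsf6 is at -0.76, and the other listed genes lie between -0.26 and 0.68.

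The 10 listed genes covered log2 fold changes from -0.39 to 0.54 at 10 nM and from -0.26 to 0.68 at 1 µM, inside the values of srsf6 at the lower end and of hnrnpab and alyref at the upper end at either dose. The chosen genes were picked partly for the size of their differences, so the listed genes do not serve as a test of them.

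Likeness of pattern was measured as the root mean square difference over the 15 libraries between log2(FPKM + 1) values, each centred on the gene's own mean, among the 313 other named gene models that were tested. The nearest to hnrnpab was alyref, at 0.13, and the nearest to alyref was hnrnpab. Of all 13191 other tested gene models, named or not, 4 were nearer to hnrnpab than alyref was, and 1 was nearer to alyref than hnrnpab was. Next for hnrnpab came b3gnt7, a glycosyltransferase gene, at 0.19 and cox7a2, a cytochrome c oxidase subunit gene, at 0.21. For alyref these were b3gnt7 at 0.15 and akirin1, for a nuclear protein, at 0.21. The median over the named gene models was 0.55 for hnrnpab and 0.50 for alyref. The chosen genes were picked on these same levels, so nearness or distance between them is a description, and nothing is read from it. Levels were used as deposited, without another scaling. The level of b3gnt7 was 6.29 ± 1.61 FPKM with vehicle, 8.90 ± 1.66 at 10 nM and 13.5 ± 0.834 at 1 µM (SD, n = 5 each).

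Nearest to srsf6 were ncoa6, a nuclear receptor coactivator gene, at 0.18, zswim6, a zinc finger gene, at 0.19 and hcfc1, a transcriptional coregulator gene, at 0.20, against a median of 0.44. Of these, hcfc1 came closest to srsf6 in having about equal levels at both doses as deposited. Its level was 13.6 ± 0.981 FPKM with vehicle, 9.17 ± 1.10 at 10 nM and 9.55 ± 1.27 at 1 µM (SD, n = 5 each). The level of ncoa6 was 2.61 ± 0.262 FPKM with vehicle, 1.76 ± 0.341 at 10 nM and 1.34 ± 0.137 at 1 µM. Nearest to prpf19 were tgm2 at 0.07, ap1m2 at 0.11 and dok1 at 0.12, against a median of 0.29. These 3 had group means between 0.843 and 2.18 FPKM, where the log2(FPKM + 1) scale compresses differences and brings genes close to any flat pattern. Of the 313 named gene models, srsf6 ranked 298 in nearness to hnrnpab, at 0.82, and prpf19 ranked 198, at 0.59, near the median of 0.55.

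The species has an allotetraploid genome with an L and an S copy of many genes. The RefSeq gene table of Xenopus_laevis_v10.1 lists 2 copies each of hnrnpab, alyref and srsf6 and 1 of prpf19, while the deposited table gives each symbol to 1 gene model and does not say which copy it is. Reads shared by near-identical copies could have been divided between gene models, and the libraries carry no strand information, so reads of overlapping genes cannot be told apart. These levels therefore hold for the named gene models and not for the sum of both copies.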

How the data were processed

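Per the labels' protocols, 100 ng of total RNA per library was amplified (NuGEN Ovation V2) and read on an ABI SOLiD 5500xl (single reads of 50 nt, non-directional). The authors deposited FPKM values, 1 column per library. Per the submitters' processing notes, the tools were TopHat, Bowtie and Cufflinks, with no version. Neither build nor annotation is given in the sources used here.

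All 13192 gene models whose mean over 15 libraries reached 1 FPKM were fitted as log2(FPKM + 1) with limma 3.58.1 in R 4.3.3, all 3 groups in 1 fit with a mean-variance trend, no covariates, two-sided, and called where the Benjamini-Hochberg adjusted p was below 0.05. Its p-values rest on the spread between aliquots, so a call does not tell treatment from dish. The fit was tested on simulated data. Python 3.11.15, numpy 2.4.6, pandas 2.3.3 and matplotlib 3.10.9 were used for the rest. For 99.1% of gene models above 0 in at least 2 libraries, values multiplied by relative depth were whole multiples of a common step within 0.03, taken as recovered reads (a step can be less than 1 read). No pair of libraries within a group was identical. For the recovered reads of the 30 pairs, chi-square divided by its degrees of freedom was 5.64 to 19.6. This is beyond sampling noise only if each step is 1 read, since smaller steps inflate it.

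The members and lists were chosen with earlier results of these data known. Of the other listed genes, those called in a comparison were named, up to 12, with the most abundant gene where a functional group had no call; since so few were tested, the remaining ones were named too, after their values were seen. Likeness named the 3 nearest gene models with a symbol. No identifier matched the RefSeq table (0), so names come from the deposited table. Alternatives were other pseudocounts, filters and scalings, a replicate block, and leaving out each library or the shallow ones.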

Additional observations from a re-analysis of the deposited data

How the results depend on the processing

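Of 288 values for the 4 genes under 24 alternatives, 281 moved by less than 1 SD between libraries. Beyond that, the log2 fold change of srsf6 was -0.60 (pseudocount 5), -0.98 (quantile normalization) and -0.998 (common total that leaves out the most abundant gene model) at 1 µM, and -0.87 (common total) at 10 nM against vehicle. That of prpf19 was -0.36 (quantile) and -0.42 (common total) at 1 µM and -0.21 (common total) at 10 nM. The 281 include values that could not move. The filters and the replicate block leave each log2 fold change as it is, as does leaving out a library of the group not compared. The limit was also wide for hnrnpab, with an SD of 0.31. Its change at 10 nM against vehicle from 0.77 to 0.49 under quantile normalization stayed within it. Without the 5 libraries under 0.4 of the deepest, which left 3 at 10 nM and 2 with vehicle, prpf19 changed sign at 10 nM (0.05 against -0.05), while hnrnpab, alyref and srsf6 stood at 0.77, 0.72 and -0.67. The cause was not tested.

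With a minimum mean of 5 FPKM, which tests 4007 gene models, limma called 1560 (10 nM against vehicle), 2250 (1 µM against vehicle) and 1047 (between the doses), in place of 3074, 6009 and 3136, and 2, 1 and 0 of the other listed genes, of which fewer were tested. Without the shallow libraries the count at 10 nM was 646, with 0 listed genes. Of the listed genes, the common total called 4 at 10 nM, and quantile normalization 0 between the doses. Leaving out 1 library gave 1 to 3 listed genes at 10 nM (3 without vehicle replicate 2, 2 without 10 nM replicate 5), 1 to 4 at 1 µM (1 without vehicle replicate 3) and 1 to 2 between the doses (2 without 10 nM replicate 5). Higher calls made up 55.8% at 10 nM, 63.5% at 1 µM and 67.5% between the doses as deposited. They made up 54.9%, 51.8% and 50.1% with median-of-ratios scaling, 44.8%, 44.7% and 47.6% with quantile normalization, and 27.7%, 39.0% and 55.1% with the common total. With the replicate number as a block, 2933, 5966 and 3051 gene models were called. The numbers name aliquots, and deviations of same-numbered libraries correlated from -0.11 to 0.11 over gene models (1 of 15 pairs over 0.1). In hnrnpab, however, replicates 1 and 2 were the highest libraries of each group. With the block, the SE of its log2 fold changes was 0.115 in place of 0.181, and that of alyref 0.112 in place of 0.150. For srsf6 it was 0.091 in place of 0.101, and for prpf19 0.099 in place of 0.092. The median correlation over gene models was 0.016 for same-numbered pairs and -0.004 for differently numbered pairs, which reached 0.198. Beyond these correlations, whether same-numbered libraries had anything in common was not tested.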

Other observations

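None of the 42 sets of 5 libraries examined (the 4 genes and the 10 other listed genes in 3 groups) had a library set apart from the rest of its group by Dixon's criterion. Vehicle replicate 3 was the lowest of the 15 libraries for hnrnpab (89.0 FPKM) and alyref (11.0 FPKM) and the lowest vehicle library for prpf19 (7.53 FPKM), but srsf6 stood at 17.4 FPKM there, above the lowest vehicle value of 16.3. Without it, the log2 fold changes at 10 nM against vehicle were 0.64 for hnrnpab and 0.54 for alyref, and at 1 µM 0.93 and 0.87, the lowest values over the 15 fits that each left out a library.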
